A study of Mus musculus with 6 samples.

Results

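The genes of MHC class I presentation and of the immunoproteasome were examined in bone marrow-derived macrophages (BMDMs) treated with IL-4. The set comprised 10 of the 24445 genes in the count table, chosen by symbol for their known roles: *H2-K1*, *H2-D1*, *B2m*, *Tap1*, *Tap2*, *Tapbp*, *Psmb8*, *Psmb9*, *Psmb10* and *Nlrc5*. All 10 passed the filter on low counts. The cells came from female mice on a C57Bl/6J background whose *Acly* gene carried loxP sites flanking exon 9. *Acly* encodes ATP citrate lyase, which makes cytosolic acetyl-CoA. In the KO group (Acly M-KO), Cre under *Lyz2* control deleted this exon in myeloid cells, and in the Ctrl group (Acly fl/fl littermates, labelled WT) it was intact. Both groups were grown for 7 days in culture and received 100 U/mL IL-4 for 24 h. Each had 3 libraries. The age of the mice is not given in the sources used here.

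MHC class I molecules carry peptides from cytosolic proteins to the cell surface, where CD8+ T cells read them. Proteasomes cut the proteins, the TAP transporter moves the peptides into the endoplasmic reticulum, and tapasin helps to load them onto a heavy chain paired with β2-microglobulin. Interferons are the classical inducers of the genes for these steps, including the immunoproteasome subunits that take the place of the constitutive catalytic ones. NLRC5, a relative of the class II transactivator CIITA, drives class I genes through a promoter module with an X2 box and a Y box.

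The proximal promoters of *H2-K1*, *H2-D1* and *B2m* are shown because they carry this module. The interval between *Tap1* and *Psmb9* is shown because RefSeq places the starts of these genes at its ends. GENCODE M21 instead extends *Psmb9*, on the minus strand, to 34187764, past the start of *Tap1* at 34187553. In that annotation the genes overlap and the interval lies inside *Psmb9*. It also starts *H2-D1* at 35262730, before the stretch shown, and *Tapbp* and *Psmb8* before the 250 bases searched for them. The sequences are RefSeq's on GRCm38.p6, read 5′ to 3′ on the coding strand. Capitals mark matches to 6 patterns of letters, searched on both strands in the 250 bases before the start site: GAANNGAAA and GAAANNGAA (interferon-stimulated response element), GGGATTCCC (NF-kB site), TGACG (X2 box core), CCAAT (Y box, ATTGG on the other strand) and TTCNNNGAA (gamma-activated site). None of these patterns overlapped another in the stretches shown. The patterns were chosen with the sequences in view, and a match is a description of letters, not of binding.
*H2-K1*, chr17:34000359-34000457, minus strand, positions -110 to -12: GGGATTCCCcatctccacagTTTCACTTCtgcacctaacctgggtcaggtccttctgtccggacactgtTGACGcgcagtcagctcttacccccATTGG
*H2-D1*, chr17:35262924-35263022, plus strand, positions -170 to -72: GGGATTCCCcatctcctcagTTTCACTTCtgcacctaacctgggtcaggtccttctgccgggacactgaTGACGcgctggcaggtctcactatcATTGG
*B2m*, chr2:122147548-122147638, plus strand, positions -139 to -49: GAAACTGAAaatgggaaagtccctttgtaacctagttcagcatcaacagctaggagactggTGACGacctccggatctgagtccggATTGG
*Tap1*, chr17:34187331-34187555, plus strand, all 225 bases between its start at 34187556 and that of *Psmb9* at 34187330 on the minus strand: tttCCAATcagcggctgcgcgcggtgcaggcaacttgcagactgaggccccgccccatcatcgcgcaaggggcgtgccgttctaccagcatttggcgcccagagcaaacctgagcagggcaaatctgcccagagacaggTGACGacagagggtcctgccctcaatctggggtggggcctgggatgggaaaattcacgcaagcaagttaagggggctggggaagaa

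The *H2-K1* and *H2-D1* stretches are both 99 bases long and hold the NF-kB, interferon, X2 and Y matches in the same order at the same spacing. *B2m* has the interferon element in the other spacing and no match to GGGATTCCC, the only NF-kB pattern searched. In these 3 genes TGACG was followed by ATTGG with 20 bases between them, an arrangement found in 18 of 32851 RefSeq promoters (0.0548%). The spacing was taken from these 3 genes and the 18 include their own entries, so the share is a description only. In the shared interval, CCAAT lies next to the RefSeq start of *Psmb9*, with TGACG closer to *Tap1*. Entries were found for 8 of the 10 genes, all but *Tap2* and *Nlrc5*. Of these 8, 6 held CCAAT, 5 TGACG, 2 GGGATTCCC, 2 GAANNGAAA, 1 GAAANNGAA and 1, *Psmb8*, TTCNNNGAA. The CCAAT and TGACG sites in the shared interval are counted for both *Tap1* and *Psmb9*. Among all 27025 genes with a promoter entry the shares were 37.5%, 19.8%, 0.352%, 7.3%, 8.18% and 8.13%.

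The libraries held 12151975 to 14739689 counts in Ctrl and 14745614 to 15587283 in KO on the transcript rows used. *Acly* fell from 334 ± 14.4 to 138 ± 6.63 CPM (counts scaled to a common library size, SD, n = 3), a log2 fold change of -1.27 (edgeR adjusted p = 5.22e-10). Reads from exons other than exon 9 still count towards this gene. Macrophage markers summed to 7710 to 8030 CPM in Ctrl and 7410 to 7790 CPM in KO (8 genes), and these ranges overlapped. Single markers differed in both directions: 1 of the 8 rose and 3 fell (edgeR adjusted p under 0.05), where 12.4% and 12.6% of all genes tested did. Dendritic cell markers summed to 28.3 to 33.2 against 20.9 to 25.6 CPM, neutrophil markers to 17.1 to 19.3 against 24.9 to 26.7 CPM, and stromal and endothelial markers to 19.4 to 21.6 against 13.8 to 15.8 CPM. Of the 8 stromal and endothelial markers only 2 were tested: 1 fell, and the other had a log2 fold change of 0.14. Their sum thus does not describe the list as a whole. Nor does that of the dendritic cell markers, where 2 of the 4 tested had log2 fold changes above 0 and 2 below. Lymphocyte markers summed to 0.228 to 0.811 CPM. *Flt3*, *Siglech*, *Ly6g*, *Elane*, *Cd3e*, *Cd3d*, *Cd3g*, *Nkg7*, *Ncr1*, *Col3a1* and *Pdgfra* had at most 3 counts in any library. The part of these lists in the results below was not tested. In bulk RNA, fewer cells of a type and less RNA per cell cannot be told apart.

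Differences between genotypes were small throughout the set. Of the 10 genes, *H2-D1* and *Psmb10* rose in KO, *Tap1* and *Tap2* fell, and 6 did not pass the test (edgeR quasi-likelihood test, adjusted p under 0.05 over 12023 genes). Among all genes tested 12.4% rose and 12.6% fell. None of the 10 passed the log2 fold change limit of 0.58 as well, which 5.55% of all genes did in either direction. The median log2 fold change of the set was -0.029, beside 0.0014 over all genes tested, with 5 genes above 0 and 5 below. It was 0.01 without Ctrl replicate 1, -0.08 without Ctrl replicate 2, -0.02 without KO replicate 2 and -0.06 without KO replicate 3. KO over Ctrl fold changes from the edgeR fit lay between 0.863 and 1.17. All 10 of the 95% confidence intervals lay within the limit of 0.58, from a lower bound of -0.36 for *Tap1* to an upper bound of 0.38 for *Psmb10*. The KO and Ctrl libraries did not overlap for 6 of the 10 genes, where 40.2% of all genes tested did not.

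**Figure D1:**
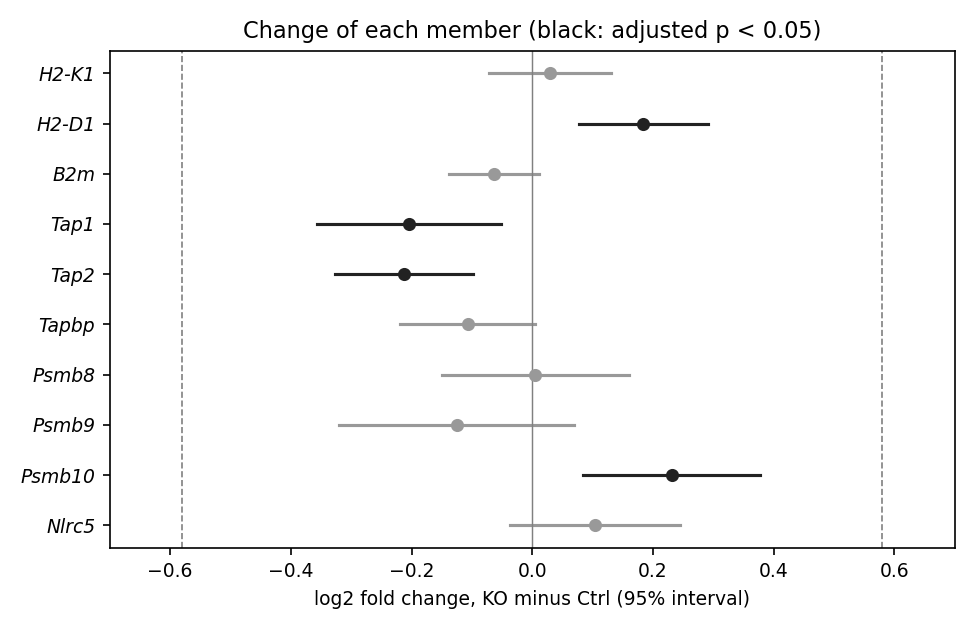
Log2 fold change of each gene, KO minus Ctrl (x axis), with its 95% confidence interval from edgeR. Black points have an adjusted p under 0.05, grey points do not, and dashed lines mark the limit of 0.58. *H2-D1* and *Psmb10* lie above 0, *Tap1* and *Tap2* below, and every interval stays inside the dashed lines.

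The levels themselves spanned a wide range. Per kilobase of transcript, *B2m* was the most abundant with 2960 CPM per kb in Ctrl and 2832 in KO, followed by *H2-D1* (1050 and 1192) and *H2-K1* (859 and 877). *Tapbp* followed at 195 and 181 CPM per kb, *Psmb10* at 97.0 and 114, *Psmb8* at 49.97 and 50.2, *Tap1* at 27.3 and 23.7, *Psmb9* at 21.1 and 19.4 and *Tap2* at 17.9 and 15.5. *Nlrc5* was the lowest, at 4.54 and 4.88 CPM per kb. The order was the same in both groups, and within each group no neighbours in it overlapped between libraries. The light chain gene and both classical heavy chain genes thus stood well above the genes for peptide supply.

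The heavy chain genes *H2-K1* (chromosome 17, 33996017 to 34000347, minus strand, GRCm38) and *H2-D1* (chromosome 17, 35262730 to 35267499, plus strand) encode the classical class I molecules that present peptides. *H2-D1* had 2336, 1983 and 2299 CPM in Ctrl replicates 1 to 3 and 2483, 2457 and 2577 CPM in KO replicates 1 to 3. The groups did not overlap, and Ctrl replicate 2 was the lowest library. The log2 fold change was 0.18 (SE 0.0501, edgeR adjusted p = 0.0143), from 2206 ± 194 to 2506 ± 63.2 CPM (SD, n = 3). Without Ctrl replicate 2 it was 0.108, still called, and without KO replicate 3 the call was lost (0.16, edgeR adjusted p = 0.0697).

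*H2-K1* had 1462, 1272 and 1438 CPM in Ctrl and 1444, 1388 and 1426 CPM in KO. All KO libraries lay within the Ctrl range. Its log2 fold change of 0.03 (95% confidence interval -0.07 to 0.13, edgeR adjusted p = 0.703) did not pass the test and changed sign without Ctrl replicate 2 (-0.04). Of the 50-base windows of its transcript, 8.79% also occur in another gene, mostly *H2-D1*, and of those of *H2-D1* 14.32% do, mostly in *H2-Q1*. How reads with several matches were counted is not given in the sources used here, so reads of these similar genes may be shared.

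*B2m* (chromosome 2, 122147686 to 122153083, plus strand) encodes β2-microglobulin, the light chain of every class I molecule. It had 2633, 2501 and 2503 CPM in Ctrl and 2478, 2364 and 2465 CPM in KO. All KO libraries were below all Ctrl libraries, by a narrow margin. The log2 fold change of -0.064 (SE 0.0348, edgeR adjusted p = 0.201) did not pass the test. Without Ctrl replicate 2 it did (-0.081, edgeR adjusted p = 0.0288).

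Ratios within a library do not depend on how libraries are scaled. The ratio of *H2-K1* to *H2-D1* in counts per kb was 0.812, 0.833 and 0.812 in Ctrl and 0.755, 0.733 and 0.718 in KO. The ratio of *B2m* to the sum of both heavy chains was 1.52, 1.68 and 1.47 in Ctrl and 1.39, 1.36 and 1.36 in KO. All KO libraries were below all Ctrl libraries for both ratios. The differences on the log2 scale were -0.16 (SE 0.0239) and -0.18 (SE 0.0597). An exact two-sided permutation test gave p = 0.10 for each, the smallest that 3 against 3 libraries allow, and 0.25 after Benjamini-Hochberg adjustment over the 5 ratios compared.

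*Tap1* and *Tap2* encode the subunits of the peptide transporter and lie on either side of *Psmb8* on chromosome 17 (34187553 to 34197225 and 34203527 to 34216321, both plus strand). *Tap2* had 60.5, 61.4 and 63.1 CPM in Ctrl and 54.6, 52.7 and 52.4 CPM in KO. The groups did not overlap, and the libraries within each were close together. Its log2 fold change was -0.21 (SE 0.0536, edgeR adjusted p = 0.0090), from 61.7 ± 1.31 to 53.2 ± 1.20 CPM (SD, n = 3), and the call held in all 6 fits that left out a library. Exons on the other strand cover 19.84% of its exonic bases, and the counting did not separate strands.

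*Tap1* had 66.5, 66.1 and 81.4 CPM in Ctrl and 63.0, 62.5 and 60.2 CPM in KO. The groups did not overlap, but Ctrl replicate 3 stood above the other Ctrl libraries. The log2 fold change was -0.20 (SE 0.0718, edgeR adjusted p = 0.0492). Without Ctrl replicate 3 it was -0.104 (edgeR adjusted p = 0.235), and the call was lost in 4 of 6 fits that left out a library, those without Ctrl replicate 3 or any KO replicate (-0.22 to -0.18 without a KO replicate). DESeq2, the tool used in the study, did not call it either (adjusted p = 0.0759).

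*Tapbp* encodes tapasin, which holds the peptide loading complex together (chromosome 17, 33915899 to 33929292, plus strand). It had 594, 525 and 575 CPM in Ctrl and 516, 504 and 554 CPM in KO. KO replicate 3 lay within the Ctrl range and the other KO libraries below it. The log2 fold change of -0.11 (SE 0.0528, edgeR adjusted p = 0.156) did not pass the test. Without Ctrl replicate 2 it did (-0.16, edgeR adjusted p = 0.0081). Exons on the other strand cover 23.53% of its exonic bases.

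**Figure D2:**
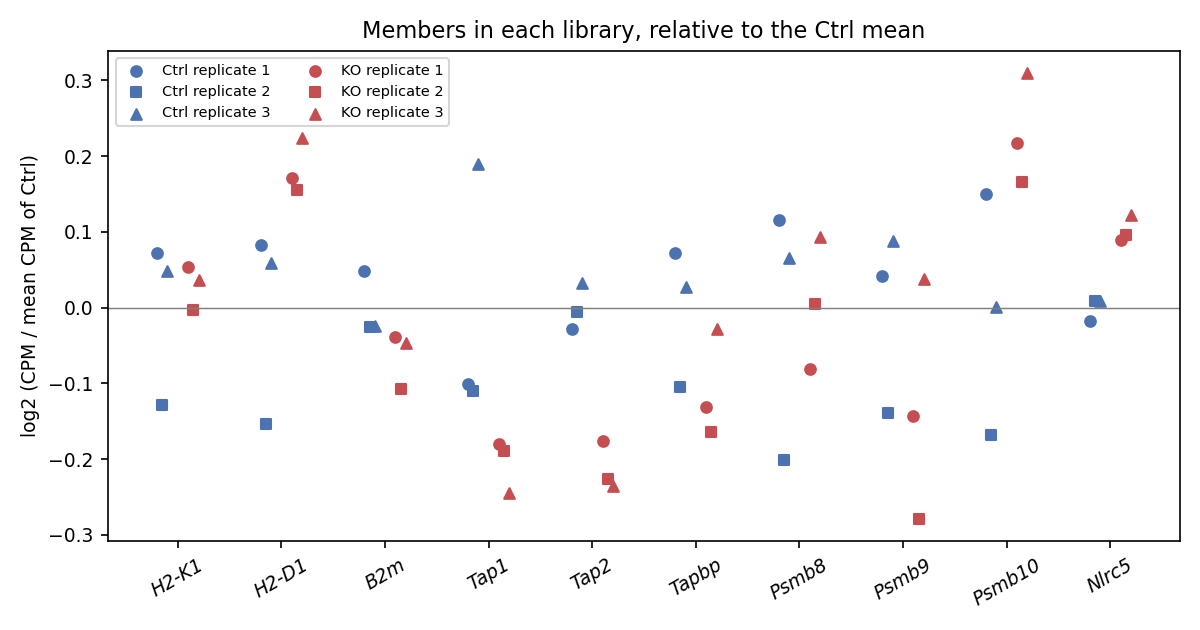
CPM of each gene in each library divided by the mean CPM of Ctrl, on a log2 axis, with blue symbols for Ctrl, red symbols for KO and 1 symbol shape per replicate number. Ctrl replicate 2 (blue squares) is the lowest Ctrl library for 8 of the 10 genes, and Ctrl replicate 3 stands apart for *Tap1*.

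The immunoproteasome subunit genes did not change together. *Psmb10* (chromosome 8, 105935735 to 105938444, minus strand) encodes the subunit that replaces Psmb7. It had 141, 113 and 127 CPM in Ctrl and 148, 143 and 158 CPM in KO. The groups did not overlap, with Ctrl replicate 1 just below the lowest KO library. The log2 fold change was 0.23 (SE 0.0689, edgeR adjusted p = 0.0231), from 127 ± 14.0 to 149 ± 7.57 CPM (SD, n = 3). The call was lost in 4 of 6 fits that left out a library, those without Ctrl replicate 2 (0.15, edgeR adjusted p = 0.0568), Ctrl replicate 3 (0.22), KO replicate 1 (0.24) and KO replicate 3 (0.19).

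*Psmb8*, whose product replaces Psmb5, and *Psmb9*, whose product replaces Psmb6, flank *Tap1* on chromosome 17 (34197721 to 34201454, plus strand, and 34181987 to 34187764, minus strand). *Psmb8* had 88.2, 70.8 and 85.2 CPM in Ctrl and 76.9, 81.6 and 86.8 CPM in KO. *Psmb9* had 29.4, 25.9 and 30.4 CPM in Ctrl and 25.9, 23.5 and 29.3 CPM in KO. The groups overlapped for both. Their log2 fold changes were 0.005 (95% confidence interval -0.15 to 0.16, edgeR adjusted p = 0.970) and -0.13 (SE 0.0913, edgeR adjusted p = 0.347). For *Psmb9* it was -0.05 without KO replicate 2 and -0.21 without KO replicate 3. The sign for *Psmb8* turned with library totals as the only scaling (-0.01). Exons on the other strand cover 11.43% of the exonic bases of *Psmb8* and 15.68% of those of *Psmb9*, the latter from *Tap1*.

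Set against the constitutive subunit it replaces, *Psmb8* stood at 1.95 ± 0.123 times *Psmb5* in Ctrl and 1.77 ± 0.182 times in KO (counts per kb, SD, n = 3). *Psmb9* stood at 0.109 ± 0.011 times *Psmb6* in Ctrl and 0.102 ± 0.0126 times in KO. *Psmb10* stood at 1.47 ± 0.191 times *Psmb7* in Ctrl and 1.55 ± 0.093 times in KO. Only the *Psmb9* ratio was thus far below 1, and the groups overlapped for all 3. The log2 differences were -0.14 (SE 0.0995), -0.10 (SE 0.134) and 0.09 (SE 0.122), with exact two-sided permutation p-values of 0.20, 0.60 and 0.60 (0.333, 0.60 and 0.60 after adjustment over the 5 ratios). Over the fits that left out a library they ranged from -0.22 to -0.08 for *Psmb8*, from -0.19 to -0.01 for *Psmb9* and from -0.02 to 0.17 for *Psmb10*. The ends came without KO replicates 2 and 1, KO replicates 3 and 2, and Ctrl replicates 2 and 1. Of the windows of *Psmb5*, 57.06% also occur in another gene, mostly *Gm3375*, and exons of *Nek6* on the other strand cover 34.91% of the exonic bases of *Psmb7*. The levels of the *Psmb8* and *Psmb10* ratios may therefore depend on how reads of these stretches were counted, which was not tested.

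**Figure D3:**
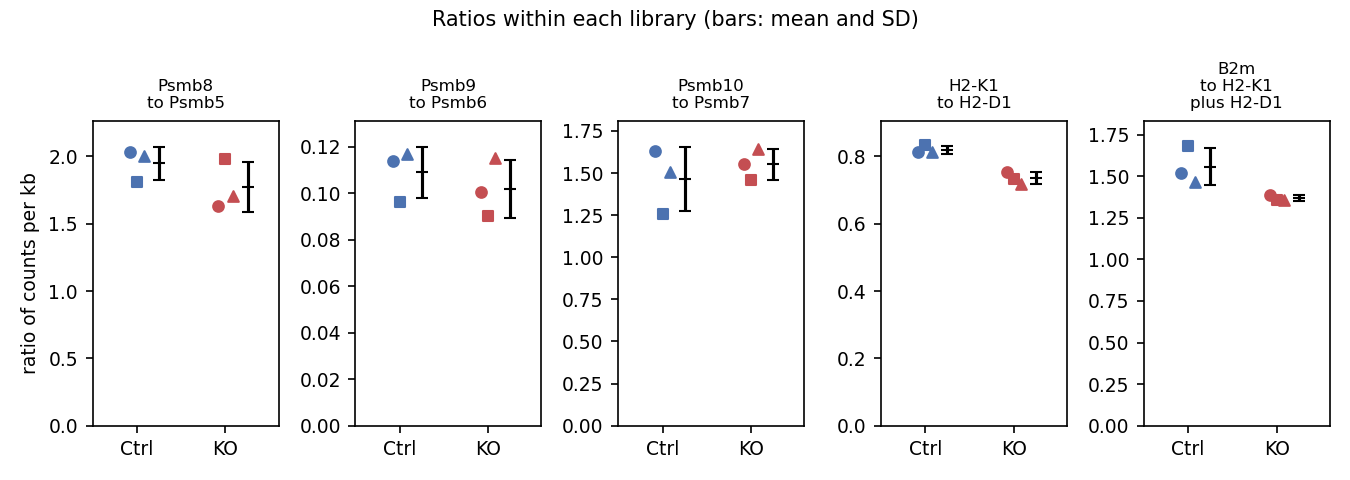
Ratio of counts per kb within each library (y axes start at 0), with blue symbols for Ctrl, red symbols for KO, circles, squares and triangles for replicates 1, 2 and 3, and black bars for the mean and SD of each group. The ratios of immunoproteasome to constitutive subunits overlap between groups, whereas those of *H2-K1* to *H2-D1* and of *B2m* to both heavy chains lie lower in all KO libraries.

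*Nlrc5* (chromosome 8, 94434356 to 94527272, plus strand, 49 exons) had 31.1, 31.7 and 31.7 CPM in Ctrl and 33.6, 33.7 and 34.3 CPM in KO. The libraries of each group were almost equal, and all KO libraries were above all Ctrl libraries. The log2 fold change of 0.10 (SE 0.0661, 95% confidence interval -0.04 to 0.24, edgeR adjusted p = 0.280) did not pass the test. edgeR shares information on variance between genes, so its SE is not that of these 6 values alone.

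Some of the genes varied together between libraries of a group. Ctrl replicate 2 was the lowest Ctrl library for 8 of the 10 genes, compared with 36.4% of all genes tested. KO replicate 2 was the lowest KO library for 6 genes and KO replicate 3 the highest for 6. Deviations from the group means, over the 6 libraries, had a median Pearson r of 0.395 over the 45 gene pairs, with a range of -0.386 to 0.96, and 13 pairs were not above 0. Among *H2-K1*, *H2-D1*, *Tapbp*, *Psmb8*, *Psmb9* and *Psmb10*, a group picked after the values were seen, all 15 pairs lay between 0.682 and 0.96. These values describe 6 libraries that share their depth and scaling. The genes outside the set whose log2 CPM was most like the mean of the set over the 6 libraries were *Csnk1d* (Pearson r 0.992), *Tmem134* (0.984), *Npc2* (0.980), *Tmem159* (0.975) and *Tapt1* (0.974).

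The genes around this set are described by lists, and each count reads against 12.4% higher and 12.6% lower among all genes. Of 24 other class I and class I-like genes, 16 were tested, 7 of which fell and 1 rose, with a median log2 fold change of -0.25. Taking genes with identical counts as 1 measurement, 5 of 14 fell and 1 rose, with a median of -0.24. *Mr1*, which presents microbial vitamin B metabolites, fell from 37.2 ± 2.02 to 22.8 ± 1.53 CPM (SD, n = 3), a log2 fold change of -0.71 (edgeR adjusted p = 9.14e-06). *Hfe*, an iron regulator with a class I fold, fell by 0.25 on the log2 scale (edgeR adjusted p = 0.00313). *H2-Q7* and *H2-Q9* had identical counts of 54, 37 and 34 in Ctrl and 20, 20 and 17 in KO (log2 fold change -1.28, edgeR adjusted p = 0.00175). *H2-Q6* and *H2-Q8* also had identical counts, at most 22 per library (log2 fold change -1.58, edgeR adjusted p = 0.025), and lost their call without Ctrl replicate 2, Ctrl replicate 3, KO replicate 1 or KO replicate 3 (-2.11 to -1.17 over the fits that left out a library). The remaining call downward was *H2-T23* (-0.24, edgeR adjusted p = 0.0263), held only without Ctrl replicate 2 among the 6 fits that left out a library (-0.34 to -0.18). The call upward was *H2-T24* (0.28, edgeR adjusted p = 0.0356), held only without KO replicate 1 among these fits (0.21 to 0.32) and lost with DESeq2. Counting each gene, the number called lower was 4 without Ctrl replicate 3, KO replicate 1 or KO replicate 3, and 6 without any other library. All windows of *H2-Q9* also occur in *H2-Q7*.

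Among 12 partners in peptide loading and trimming, 3 rose and 0 fell, with a median of 0.09. The chaperone genes *Hspa5* (0.30, edgeR adjusted p = 6.85e-05), *Canx* (0.14, edgeR adjusted p = 0.0108) and *Calr* (0.11, edgeR adjusted p = 0.033) rose on the log2 scale. *Canx* lost its call without KO replicate 1 or 2 (0.13 to 0.14 over the fits that left out a library), and *Calr* without Ctrl replicate 3 or any KO replicate (0.083 to 0.12). The number called higher was then 1 without KO replicate 1 or 2. *Pdia3*, whose product is part of the loading complex, had a log2 fold change of 0.12 (edgeR adjusted p = 0.0505) and was called with limma-voom, upper quartile scaling, the stricter filter and without Ctrl replicate 1 (0.13). *Erap1*, the peptide trimming enzyme of the endoplasmic reticulum, had -0.01 (edgeR adjusted p = 0.880). Among 10 cytosolic peptidases, *Blmh* rose (0.29, edgeR adjusted p = 0.00677) and *Lap3* fell (-0.24, edgeR adjusted p = 0.0113), with a median of -0.06.

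Proteasome core subunits other than the exchanged catalytic ones, and the 19S regulatory subunits, leaned upward by small amounts. All 11 of the other core subunits and all 18 of the 19S regulatory subunits had log2 fold changes above 0, with medians of 0.13 and 0.11, beside 50.3% of all genes tested above 0. These counts were the same under every scaling tried and were 9 and 15 without Ctrl replicate 2. Of the core subunits 3 rose: *Psma2* (0.25, edgeR adjusted p = 0.00536), *Psmb4* (0.21, edgeR adjusted p = 0.00905) and *Psma4* (0.19, edgeR adjusted p = 0.0369). *Psma4* lost its call with DESeq2 and without Ctrl replicate 3, KO replicate 1 or KO replicate 2 (0.13 to 0.22 over the fits that left out a library). Of the 19S subunits 5 rose, led by *Psmd7* (0.35, edgeR adjusted p = 0.000214), *Psmc1* (0.22, edgeR adjusted p = 0.0102), *Psmd13* (0.20, edgeR adjusted p = 0.0116) and *Psmd14* (0.16, edgeR adjusted p = 0.0263), and 2 to 5 did in fits that left out a library, with 2 without KO replicate 1 and 3 without KO replicate 2 or 3. *Psmd7* kept its call in all 6 of these fits. *Psmc1* lost it without Ctrl replicate 3 or KO replicate 1 (0.18 to 0.27 over these fits), *Psmd13* without KO replicate 3 (0.16 to 0.23), and *Psmd14* with DESeq2 and without Ctrl replicate 1 or any KO replicate (0.14 to 0.17).

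Of the catalytic subunits that the immunoproteasome replaces, *Psmb7* rose (0.15, edgeR adjusted p = 0.0417), a call lost with DESeq2 and, of the fits that left out a library, held only without Ctrl replicate 2 (0.12 to 0.17 over these fits). *Psmb5* had 0.15 (edgeR adjusted p = 0.236) and *Psmb6* -0.03 (edgeR adjusted p = 0.741). Among 10 activators and assembly factors 2 rose, with a median of 0.13. *Pomp*, the proteasome maturation protein, rose from 89.8 ± 4.03 to 111 ± 1.05 CPM (SD, n = 3), a log2 fold change of 0.30 (edgeR adjusted p = 0.000435). *Psmg4*, an assembly chaperone, had 0.51 (edgeR adjusted p = 0.0368), a call lost with DESeq2 and without any Ctrl replicate or KO replicate 3 (0.32 to 0.61 over the fits that left out a library). The interferon-inducible activator genes *Psme1* and *Psme2* had -0.04 each (edgeR adjusted p = 0.617 and 0.766), and the sign of *Psme2* turned without Ctrl replicate 3 (0.023).

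Among 28 transcription factors and upstream signalling genes of class I expression, 5 fell and 1 rose, with a median of -0.005, and 3 rose without Ctrl replicate 3. The interferon gamma receptor gene *Ifngr1* fell from 189 ± 13.1 to 132 ± 0.838 CPM (SD, n = 3), a log2 fold change of -0.52 (edgeR adjusted p = 5.68e-06). *Irf8*, a myeloid interferon regulatory factor, fell from 181 ± 8.57 to 134 ± 4.11 CPM (SD, n = 3), a log2 fold change of -0.43 (edgeR adjusted p = 2.36e-05). The type I interferon receptor gene *Ifnar2* fell (-0.27, edgeR adjusted p = 0.000928) and the kinase gene *Jak2* rose (0.26, edgeR adjusted p = 0.0013). These 4 calls held in all 6 fits that left out a library. *Ciita*, which drives class II genes, had -0.34 (edgeR adjusted p = 0.026), a call lost with DESeq2 and, of these fits, held only without Ctrl replicate 1 (-0.42 to -0.30), and *Nfkb1* fell by 0.19 on the log2 scale (edgeR adjusted p = 0.00792). *Irf1* (0.02, edgeR adjusted p = 0.899) and *Rfx5*, whose product binds the X box (-0.36, edgeR adjusted p = 0.0671), did not pass the test. *Rfx5* was called without a filter on low counts (-0.37) and without KO replicate 3 (-0.51), and the sign of *Irf1* turned without Ctrl replicate 2 (-0.078).

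Of 35 interferon-stimulated genes tested, 8 rose and 5 fell, with a median of 0.17. The median was 0.031 without KO replicate 2, and 0.154 to 0.233 without any other library. The antiviral sensor genes *Oas3* (0.74, edgeR adjusted p = 0.000138) and *Oasl2* (0.68, edgeR adjusted p = 0.000131) rose, as did the guanylate-binding protein gene *Gbp2* (0.38, edgeR adjusted p = 0.00149), while its relative *Gbp7* fell (-0.41, edgeR adjusted p = 0.00192). In fits that left out a library 5 to 11 of these genes rose and 3 to 4 fell, with 5 called higher without KO replicate 2 and 3 called lower without Ctrl replicate 2 or any KO replicate. The 4 named genes kept their calls in all 6 fits. The list thus held calls in both directions.

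All 6 class II genes tested of 10 listed fell, with a median of -0.37. They included *Cd74*, the invariant chain gene, from 440 ± 5.99 to 345 ± 18.0 CPM (SD, n = 3; log2 fold change -0.35, edgeR adjusted p = 7.64e-05), the peptide editor gene *H2-DMa* (-0.51, edgeR adjusted p = 0.000175), *H2-Ab1* (-0.38, edgeR adjusted p = 0.000278) and *H2-Aa* (-0.34, edgeR adjusted p = 0.000298). Without KO replicate 1, 5 of the 6 were called. Dendritic cell markers summed to less in KO, as given above, a sum weighted towards *Batf3*, the most abundant of them (19.1 ± 3.62 to 12.9 ± 1.94 CPM, SD, n = 3). That sum does not describe the list as a whole, as 2 of the 4 tested had log2 fold changes above 0 and 2 below. Of the 4 tested, *Batf3* fell and *Cd209a* rose (1.65, edgeR adjusted p = 0.0128, at most 16 counts per library), a call lost without Ctrl replicate 1. The difference between class I and class II was not tested. Of 20 cross-presentation factors 2 rose and 3 fell, with a median of -0.04, and 1 to 3 and 1 to 5 did in fits that left out a library. The count of 1 called higher came without any KO replicate, and that of 1 called lower without KO replicate 1 or 2. The larger counts of 3 and 5 came without Ctrl replicate 2. *Vcp*, an ATPase that extracts proteins from membranes, rose (0.38, edgeR adjusted p = 5.1e-05), and *Rac2* (-0.28, edgeR adjusted p = 0.00053), whose product takes part in the NADPH oxidase, and the Fc receptor gene *Fcgr3* (-0.16, edgeR adjusted p = 0.0197) fell. *Fcgr3* lost its call without Ctrl replicate 1, KO replicate 1 or KO replicate 2 (-0.19 to -0.11 over the fits that left out a library).

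**Figure D4:**
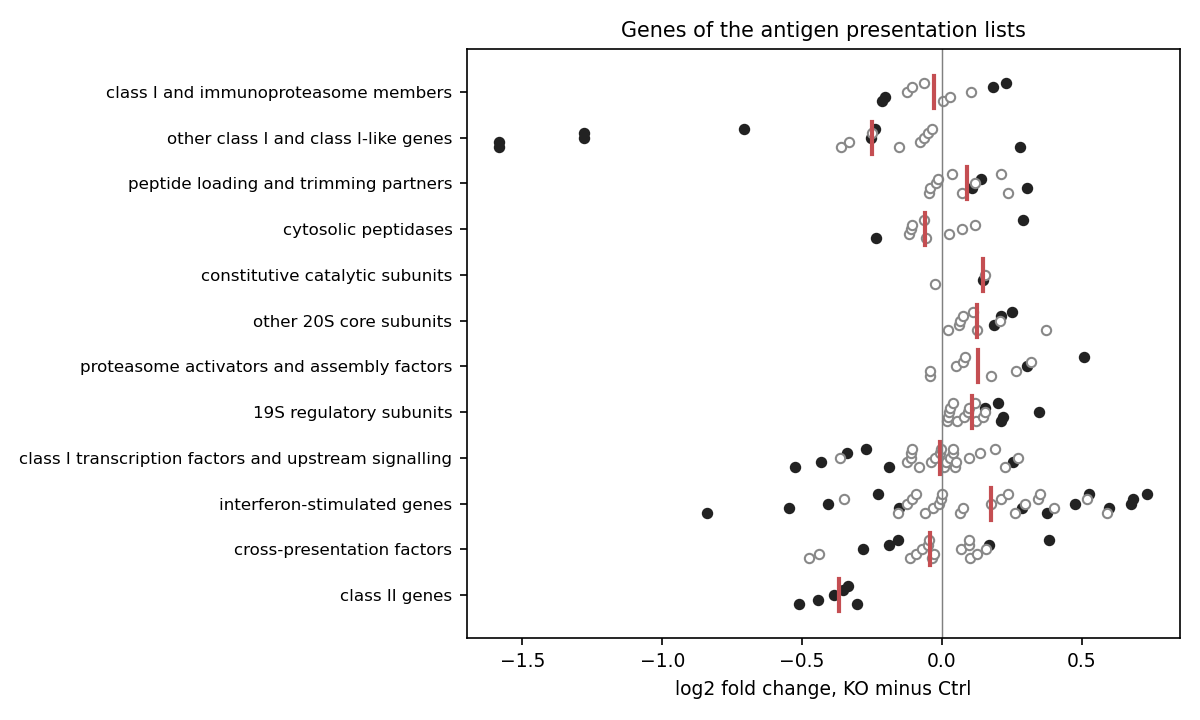
Log2 fold change, KO minus Ctrl (x axis), of every tested gene in 12 lists (rows). Filled points have an edgeR adjusted p under 0.05, open points do not, and red bars mark the median of each list. The class II genes lie below 0, the other 20S core subunits and the 19S regulatory subunits above it, and the class I and immunoproteasome genes on both sides.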

How the data were processed

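RNA-sequencing of 6 libraries of IL-4-treated BMDMs was analysed, 3 from Ctrl and 3 from KO cells. From strand-specific mRNA libraries, the authors aligned reads to mm10 with STAR 2.5.2b. They deposited raw read counts with a row for each of 35745 RefSeq transcripts. The submitters' processing notes also name CASAVA 1.8.2. The counting program is not given in the sources used here. The paper describes the transcriptomic replicates as biological in its methods and as technical replicates from 3 pooled mice in a legend, so p-values measure the spread between these libraries, which may be technical. The genes, the lists around them and the tests were chosen with earlier results of these data known.

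Rows were paired with symbols through RefSeq (35440 rows) and GENCODE M21 (188 rows). The 117 rows without a gene, holding 0.370% to 1.38% of counts, were left out. A gene with several rows was represented by the row whose counts, summed over the 6 libraries, were highest. *Xist* and its antisense gene *Tsix* had identical counts in all libraries but KO replicate 1 (7560 and 7562), so strands were not separated. GENCODE M21 (GRCm38) gave transcript lengths and positions.

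Counts were tested in R 4.3.3 with edgeR 4.0.16 (filterByExpr, TMM, quasi-likelihood test, genotype as the only term) and Benjamini-Hochberg adjustment over 12023 genes, and the procedure was tested on simulated data. The common biological coefficient of variation was 0.0588. A log2 fold change is KO minus Ctrl, and CPM values use TMM-scaled library sizes. Alternatives were DESeq2 1.42.0, limma-voom (limma 3.58.1), other scalings and filters, a replicate term, thinned libraries, other choices of row and fits that left out each library. Named are the 10 genes, *Acly*, the replaced subunits, loading partners and regulators picked by function, up to 4 genes per list with the lowest adjusted p under 0.05 and a mean of at least 1 CPM, and the 5 genes most like the set. *H2-T23*, *H2-T24*, *H2-Q6*, *H2-Q8*, *Nfkb1*, *Cd209a*, *Gm3375* and *Nek6* were added after their values were seen. Values of a few single genes that this rule or the marker lists would name are left out of the text.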

Additional observations from a re-analysis of the deposited data

How the results depend on the processing

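*H2-D1* and *Psmb10* higher and *Tap2* lower kept their calls under all alternatives that used all 6 libraries without a fold change limit. *Tap1* did not. Without it, 1 of the 10 genes was called lower with DESeq2 (adjusted p for *Tap1* 0.0759), limma-voom (0.0607), upper quartile scaling (0.0574), the replicate block (0.0558), libraries thinned to the smallest total (0.0672) and the sum of the rows of each gene (0.0702). The causes were not tested. With a log2 fold change beyond 0.58 as well, 358 genes were higher and 309 lower, and 0 and 0 of the 10.

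No pairing by replicate number was seen, as deviations of same-numbered libraries correlated at -0.065, 0.050 and -0.031. With 3 libraries a group, these values cannot exclude a pairing. With the replicate block, 1315 genes were higher and 1329 lower. The sign of *Psmb8* turned with library totals alone (-0.014), without a filter on low counts (-0.000424) and after thinning (-0.015), and that of *Irf1* with library totals alone (-0.0034).

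In the 6 fits without a library, 0 to 2 of the 10 genes were higher and 1 to 4 lower, and 972 to 1548 genes in all were lower. The count of 0 came without KO replicate 3, the 4 without Ctrl replicate 2 and the 972 without KO replicate 2. The log2 fold changes ranged from -0.036 to 0.064 for *H2-K1*, -0.089 to 0.065 for *Psmb8*, -0.078 to 0.12 for *Irf1*, -0.057 to 0.017 for *Erap1*, -0.13 to 0.023 for *Psme2* and -0.017 to 0.17 for the ratio of *Psmb10* to *Psmb7*. Those of *Tap2* stayed between -0.23 and -0.20. Alternatives for the lists and for named genes outside the 10 were added after the data were seen. With 3 libraries a group, ratios could not reach an exact permutation p under 0.10, and the genes with few counts, such as *H2-Q6*, rest on at most 22 counts per library.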
